A study of Mus musculus with 97 samples.

Results

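The comparison described here asks which transcripts of the cortex differ when the partner of doxorubicin is docetaxel rather than cyclophosphamide, in mice that carry human APOE3. It sets 9 captured cortex regions of mice given doxorubicin with docetaxel (DD) against 8 of mice given doxorubicin with cyclophosphamide (DC), out of 97 libraries in the whole series. Of the 19962 genes measured, 110 were chosen as members because their median ratio to the negative probe was over 2 in these 17 libraries. The negative probe has no target in the genome, so its value is the background of the assay. The ratio pools both regimens, so a weak member can pass through the regimen in which it is high: 87 members were over 2 in both, 12 in DD alone and 11 in DC alone. The members just inside the limit were Rps29, Crk, Gm46650, Gm52481 and Yy2, at a ratio of 2.03, and the genes just outside it, at 1.99, were Slc23a2, Asb11, Morn1, Gimap1 and Morf4l1.

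The animals were older mice in which human APOE3 had been knocked in, and brain sections of 8 µm were profiled with the GeoMx Whole Transcriptome Atlas, in which tags of hybridised probes are released by ultraviolet light from a chosen region and sequenced. Doses per week were 3 mg/kg doxorubicin with 10 mg/kg docetaxel for DD, and 3 mg/kg doxorubicin with 40 mg/kg cyclophosphamide for DC, injected into the peritoneum 2 times per week for 2 weeks. Vehicle regions (n = 8) came from mice given dimethyl sulfoxide in phosphate-buffered saline. Doxorubicin is therefore common to both regimens, and the doses of the partners differ. How the regions were chosen within the cortex, the exact age and the sex are not given in the labels used here, and the labels do not tie regions to animals.

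Docetaxel is a taxane that binds beta-tubulin and holds microtubules in their polymerised state, which stops dividing cells in mitosis and disturbs axonal transport. Cyclophosphamide is a prodrug that liver cytochromes P450 turn into a nitrogen mustard, which crosslinks DNA and is met by crosslink and excision repair. Doxorubicin intercalates in DNA and traps topoisomerase II. Microtubule genes, DNA repair genes, p53 targets and inflammatory genes are therefore the groups in which the partners could be looked for, and whether they rose above background is given with each group.

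The libraries were shallow. Total counts ran from 24040 to 72867 in DD and from 22567 to 73954 in DC, and each gene adds 1 or more to these totals, since no deposited value is lower. The mean negative probe value was 1.72 ± 0.635 (SD, n = 9) in DD and 1.65 ± 0.649 (SD, n = 8) in DC. The DD to DC ratio of geometric means was 1.04 (two-sided exact permutation test over 24310 regroupings, p = 0.817), and that of the total was 1.09 (exact p = 0.696). It was above 2 in 4 of 9 DD and 2 of 8 DC libraries. Most genes were at background, with a median ratio to it of 0.915. Of the 110 members, 77 had a median count under 10 and the same number stood at 1 in some library. An edgeR filter on low counts passed 57 genes, of which 55 are members and 2, Lat and Rgs19, are not; the other 55 members were below it.

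The members had a larger mean share of the total count in DD, a difference that did not pass adjustment. They held 8.35% ± 2.87 (SD, n = 9) of the total count in DD, with values from 4.76% to 12.1% around a median of 8.82%. In DC they held 5.76% ± 1.28 (SD, n = 8), from 4.13% to 7.65% around a median of 5.61%. The ranges overlapped, with 4 of the 9 DD values inside the DC range and 5 above it. The ratio was 1.40 (two-sided exact permutation p = 0.0414 over regions, 0.166 after Benjamini-Hochberg adjustment over 4 library measures). Over 4 runs of neighbouring wells in each group the ratio was 1.45 (exact p = 0.143, where 0.0286 is the smallest p that 70 regroupings can give). The summed count of the 57 tested genes was 1.58-fold higher in DD (exact p = 0.203). Vehicle regions had a member share of 8.82% ± 2.69 (SD, n = 8). The total includes the floor of 1 per gene, so the share also varies with depth. The DC region numbered 8 had the lowest share in DC, 4.13%, and 2605 of its 22567 counts lay above that floor. Counts above the floor had a median of 5191 in vehicle, 16737 in DD and 13235 in DC, so the vehicle share came from shallower libraries. A share with the floor subtracted was not compared.

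**Figure D1:**
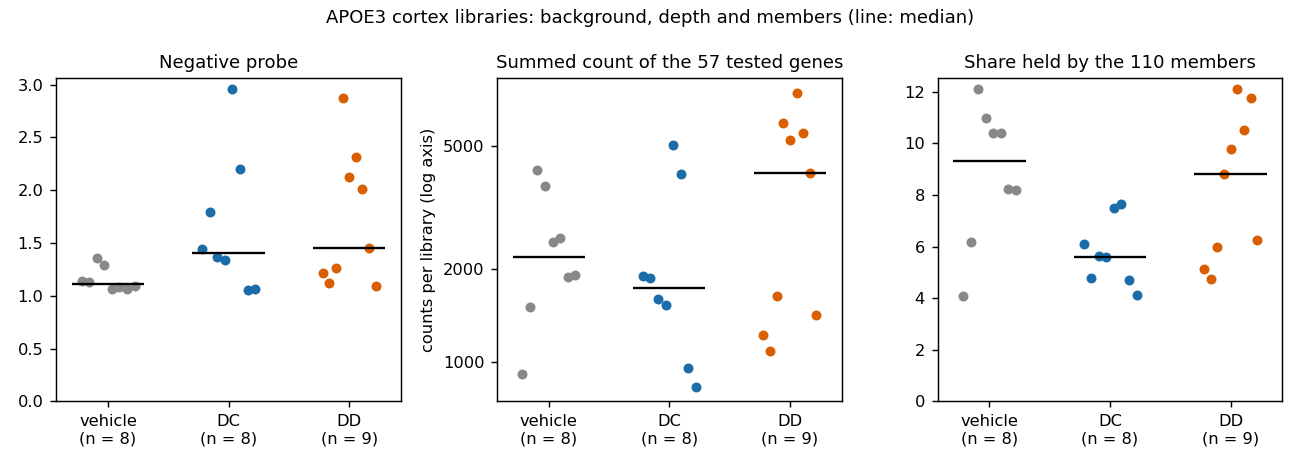
Negative probe value, summed count of the 57 tested genes (log axis) and percent of the total count held by the 110 members, in each APOE3 cortex library (point) of the vehicle, DC and DD groups, with group medians as lines. The negative probe lies at similar medians in DC and DD, while the member share has a median of 8.82% in DD and 5.61% in DC with overlapping points.

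Mtch2, which encodes a carrier-like protein of the outer mitochondrial membrane that inserts proteins into it, was the brightest member, with a median ratio to the negative probe of 272. It lies at chr2:90847090-90866810 in mm10 and is protein-coding. Values per library below are counts per 1000 scaled counts of the tested genes, with scaling by TMM, so they describe a gene within the set of tested genes. In DD Mtch2 ran from 154 over a median of 221 to 332, and in DC from 89.5 over a median of 153 to 399. Among the DC libraries 6 lay between 89.5 and 174. The others, at 349 and 399, came from the same run of neighbouring wells. They had 2907 and 2605 counts above the floor, the fewest in DC. The SD of log2 Mtch2 in DC was 0.83 between runs and 0.22 within them. The groups overlapped, and the fold of DD over DC was 1.24 (log2 0.31, SE 0.22, edgeR adjusted p = 0.430). Without the DC region at 399 the log2 fold change was 0.59. A fit without its neighbour at 349 as well was not made.

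Mtch2 moved with the genes it was fitted with. Relative to the negative probe its median ratio was 368 in DD and 228 in DC. When all 19962 genes entered the fit and the scaling, which then rests on genes at background, Mtch2 was 2.14-fold higher in DD (log2 1.10, edgeR adjusted p = 0.0425). With the 57 tested genes kept and only the scaling changed to the negative probe, its log2 fold change was 1.04 (adjusted p = 0.0613). The fit of all genes called 6 genes (0.0301% of those tested; 318 had an unadjusted p under 0.05). The other five genes, Gm10840, Irak1, Nmur2, Olfr147 and Tnfrsf11b, lay at 0.915 to 0.994 times the negative probe, and each had a highest count of 77 to 128 in a library against a median count of 1 or 2. They are named here after their values were seen.

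The members of high level after Mtch2 did not separate the regimens. Gm10265 and Gm52523, both predicted genes, had median ratios to the negative probe of 230 and 102. Gm10265 ran from 106 over a median of 147 to 175 per 1000 in DD and from 97.7 over 137 to 161 in DC (log2 0.07, SE 0.15). Gm52523 ran from 60.3 over 73.6 to 92.3 in DD and from 55.0 over 74.6 to 84.4 in DC (log2 0.05, SE 0.14). Both differences turned to -0.02 and -0.03 with no scaling beyond the summed tested counts. The intervals of 95% for both genes lay within a 2-fold change either way. Hmga2, a chromatin protein that bends AT-rich DNA, had medians of 19.6 in DD and 15.7 in DC with ranges of 10.8 to 28.9 and 6.78 to 46.8 (log2 0.04, SE 0.22), a difference that was -0.01 with no scaling beyond the summed counts. The lncRNA Gm46840 had medians of 41.3 and 35.5 and a log2 fold change of -0.00 (SE 0.17), with no stable sign. The predicted gene Gm33888 ran from 28.9 over 40.0 to 74.4 in DD and from 23.5 over 28.6 to 51.1 in DC (log2 0.28, SE 0.19, edgeR adjusted p = 0.377).

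Over the 57 tested genes the partner of doxorubicin gave 0 calls (0%) at an edgeR adjusted p under 0.05, with 12 genes at an unadjusted p under 0.05 and a smallest adjusted p of 0.167. Of the 12, 3 were higher in DD and 9 higher in DC. The p-values were taken over regions; wherever several regions come from the same animal, they are too small. When only the 17 libraries were filtered and fitted by edgeR, 0 of 31 genes were called and 5 had an unadjusted p under 0.05. DESeq2 on the 57 genes called 1 gene, Mplkip. Log2 fold changes (DD minus DC) were above 0 for 27 genes and below 0 for 30, with a median of -0.01 and a median SE of 0.25. The 95% interval lay within a 2-fold change either way for 46 of the 57, and reached beyond it for 11. The intervals leave room for smaller differences in either direction. Scaling to the negative probe instead, an alternative added after the data were seen, moved the median log2 fold change to 0.58, and 51 of 57 were then above 0, with 1 call (Mplkip). Differences below are thus relative to the tested genes as a whole.

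**Figure D2:**
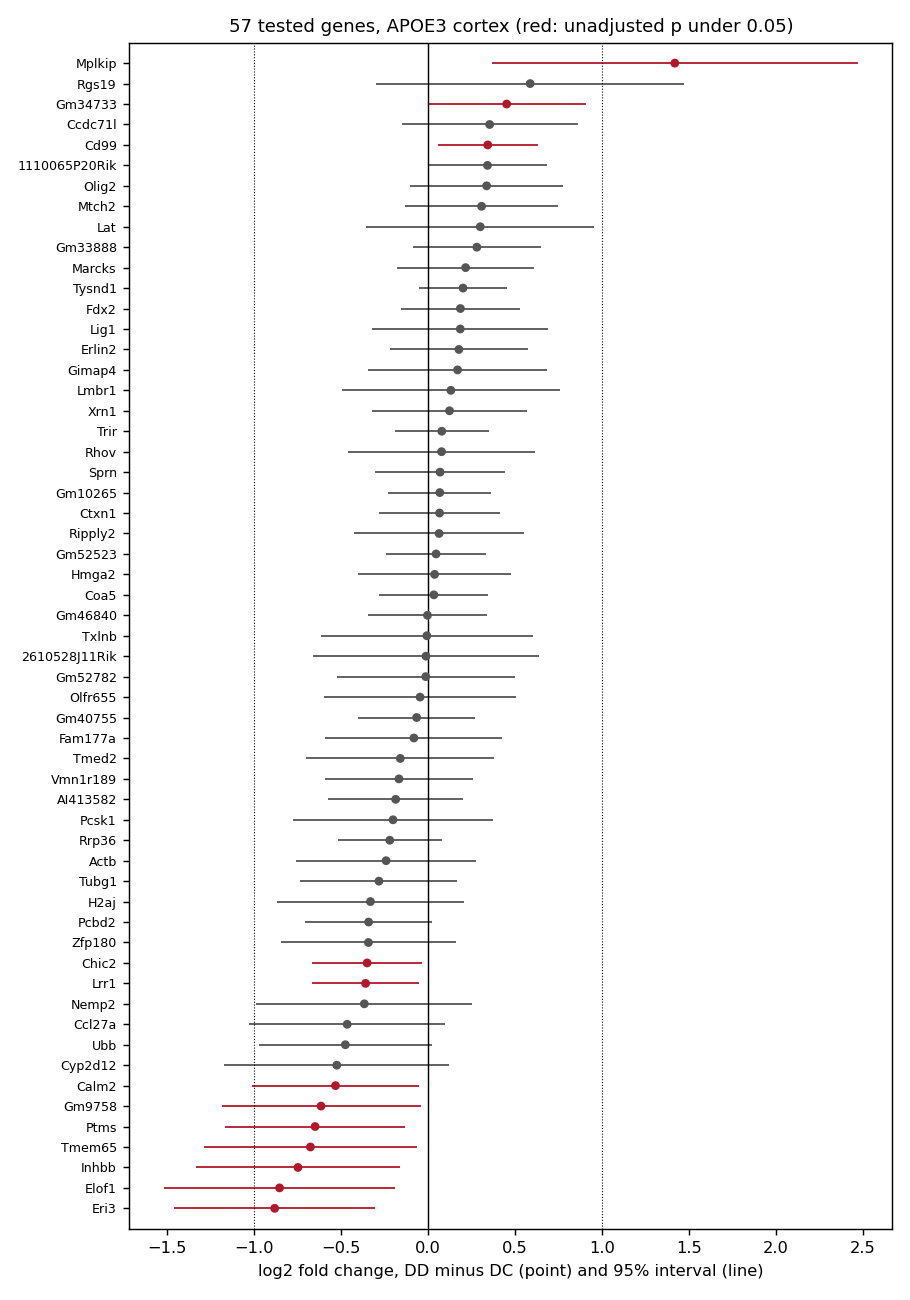
Log2 fold change (DD minus DC, points) with its 95% interval (lines) for each of the 57 tested genes in APOE3 cortex, from edgeR with all 49 cortex libraries; red marks the 12 genes with an unadjusted p under 0.05, and dotted lines a 2-fold change. No gene passed after adjustment, and 11 intervals, among them those of Mplkip, Eri3 and Elof1, reach beyond a dotted line.

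The 5 genes with the smallest p on the DD side were Mplkip, Cd99, Gm34733, 1110065P20Rik and Tysnd1. Cd99, a surface glycoprotein through which leukocytes pass the endothelium, ran from 19.0 over a median of 31.1 to 42.4 per 1000 in DD and from 16.5 over 25.3 to 32.3 in DC. Some DD values lay above all DC values, and the fold was 1.27 (log2 0.34, SE 0.14, edgeR adjusted p = 0.182). Its 123 counts in the median DD library against 44 in the median DC library make it better counted than most members. Gm34733, a predicted protein-coding gene, ran from 5.67 over 8.10 to 12.2 in DD and from 2.75 over 5.97 to 7.54 in DC (1.37-fold, log2 0.45, SE 0.23, adjusted p = 0.222). The uncharacterised gene 1110065P20Rik ran from 9.76 over 11.8 to 17.4 in DD and from 5.50 over 10.5 to 13.1 in DC (1.27-fold, log2 0.34, SE 0.17, adjusted p = 0.222). Tysnd1, the protease that processes enzymes imported into peroxisomes, ran from 38.2 over 49.9 to 54.6 in DD and from 28.9 over 43.8 to 47.7 in DC (1.15-fold, log2 0.20, SE 0.13, adjusted p = 0.361). All of these groups overlapped.

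Mplkip, a protein linked to a form of trichothiodystrophy, had the largest fold of the tested genes, 2.68 (log2 1.42, SE 0.53, edgeR adjusted p = 0.167), and it came mostly from 1 region. The DD region numbered 2 held 44 Mplkip counts, 41.4 per 1000, against a group median of 1.91 and values of 0.826 to 2.89 in the other eight. DC ran from 0.459 over a median of 1.31 to 4.11 per 1000. Without that DD region the log2 fold change was 0.55. The gene lies at chr13:17695413-17699112.

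On the DC side the smallest p belonged to Eri3, Elof1, Inhbb, Ptms and Lrr1. Eri3, a predicted exoribonuclease of the ERI family at chr4:117550241-117674297, ran from 0.541 over 2.09 to 2.83 per 1000 in DD and from 2.29 over 3.19 to 4.80 in DC. The lowest DC value lay above the median of DD, and DC was 1.84-fold higher (log2 -0.88, SE 0.29, edgeR adjusted p = 0.167). These values rest on 4 counts in the median DD library and 7 in the median DC library. Inhbb, the beta-B subunit of activin and inhibin, ran from 0.870 over 1.04 to 2.83 in DD and from 1.15 over 2.03 to 2.84 in DC (log2 -0.75, SE 0.29, adjusted p = 0.167). Its groups covered nearly the same range and differed in where most regions lay.

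Ptms, parathymosin, a small acidic nuclear protein, ran from 1.34 over 3.55 to 5.78 in DD and from 2.71 over 4.77 to 10.3 in DC (log2 -0.65, SE 0.26, edgeR adjusted p = 0.167). Elof1, an elongation factor of RNA polymerase II that also takes part in transcription-coupled repair, ran from 0.826 over 1.88 to 5.32 in DD and from 1.38 over 2.28 to 7.57 in DC (log2 -0.85, SE 0.33, adjusted p = 0.167). The DC region numbered 5 alone held 43 Elof1 counts against a DC median of 4.5, and without it the log2 fold change was -0.24. In the libraries with a negative probe under 2 the difference was 0.08, the other way.

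Lrr1, which brings substrates to a cullin ubiquitin ligase, and Chic2, a palmitoylated membrane protein, were the well-counted genes of the DC side, with 248 and 168 counts in the median DD library. Lrr1 ran from 44.7 over 57.4 to 79.1 per 1000 in DD and from 54.6 over 80.9 to 113 in DC (log2 -0.36, SE 0.15, edgeR adjusted p = 0.182). Chic2 ran from 31.1 over 45.1 to 49.6 in DD and from 41.3 over 54.0 to 81.9 in DC (log2 -0.35, SE 0.16, adjusted p = 0.182). Both directions flip to 0.33 and 0.27 when scaled to the negative probe. The lower values of Lrr1 and Chic2 in DD are thus values within the set of tested genes. The 3 remaining genes with an unadjusted p under 0.05 were Calm2, a calmodulin (log2 -0.53, SE 0.24, 0.08 when scaled to the negative probe), Tmem65, a protein of the inner mitochondrial membrane (log2 -0.67, SE 0.31), and Gm9758 (log2 -0.61, SE 0.29).

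**Figure D3:**
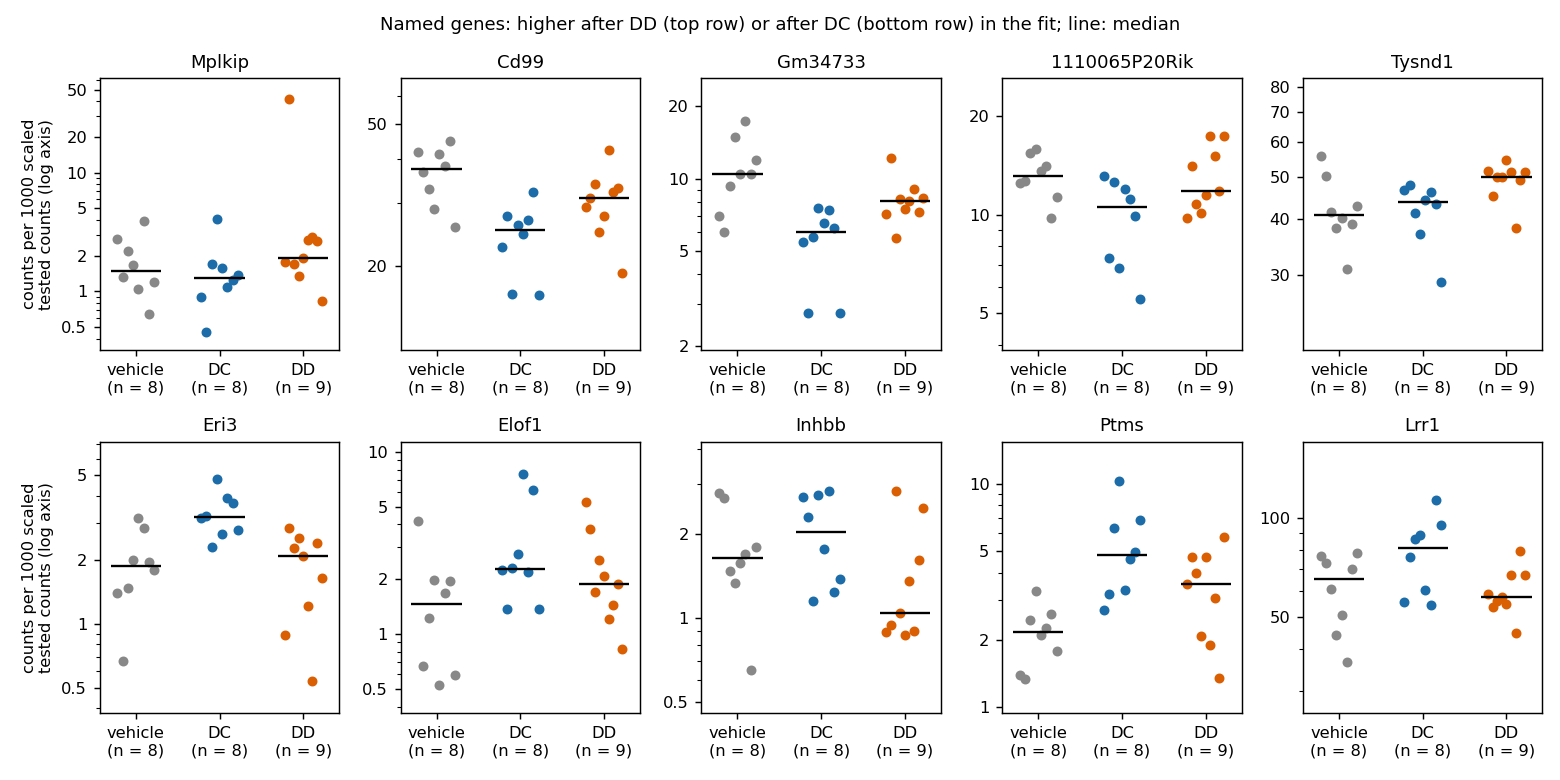
Counts per 1000 scaled tested counts (log axis) of the 5 genes with the smallest p in each direction, in each APOE3 cortex region (point) of the vehicle, DC and DD groups, with group medians as lines. DD and DC overlap in every panel; the Mplkip panel shows 1 DD region at 41.4 against a group median of 1.91.

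The 55 members below the count filter were read in a fit of the 110 members with no low-count filter and adjustment over those 110. It called 3 genes (2.73%), with 21 at an unadjusted p under 0.05: Nppa and Brk1 were lower in DD and Mplkip was higher. All 3 were over the limit of 2 in 1 regimen only, with ratios in DD and DC of 1.83 and 3.69 for Nppa, 1.41 and 3.56 for Brk1, and 5.18 and 1.79 for Mplkip. Genes that enter in this way had to differ in that ratio, which favours a call in the fit without forcing it. Of the 12 members over 2 in DD alone 1 was called, and of the 11 in DC alone 2. The calls are thus a description and not support, and of the 87 members over 2 in both regimens 0 were called. In the fit of all 19962 genes the adjusted p was 0.994 for Nppa, Brk1 and Mplkip alike. In the fit of the members Mplkip rested on the same DD region (log2 1.58, and 0.71 without it, edgeR adjusted p = 0.0259 and 0.237). Brk1 encodes a small subunit of the WAVE complex, which drives actin branching, and lies at chr6:113604772-113616951. Its counts in the DD regions were 1, 1, 1, 7, 3, 8, 8, 1 and 2, and in the DC regions 5, 5, 5, 5, 11, 9, 2 and 3. Per 1000 tested counts DD ran from 0.268 over a median of 0.942 to 1.65, and DC from 1.94 over 2.39 to 4.13. Brk1 was the 1 member of 110 whose DD and DC ranges did not overlap; among the 57 tested genes there were 0. It was 2.26-fold lower in DD (log2 -1.17, SE 0.30, adjusted p = 0.0211).

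Nppa, the precursor of atrial natriuretic peptide at chr4:148000722-148002074, had 1 to 12 counts in DD (median 2) and 1 to 13 in DC (median 6.5). Per 1000 tested counts DD ran from 0.268 over 0.942 to 1.65 and DC from 1.24 over 2.75 to 5.50, with overlap. It was 2.17-fold lower in DD (log2 -1.12, SE 0.30, edgeR adjusted p = 0.0211). For each of Nppa and Brk1, 4 of 9 DD libraries stood at 1, the lowest deposited value, so their fold depends on what a 1 stands for. With 1 subtracted from every count the calls ended (adjusted p = 0.116 and 0.102), as they did under DESeq2 (0.0758 for both) and without the DC region numbered 1, the DC region numbered 3 or the DD region numbered 8. With the run of wells as a random effect Nppa (0.0595) and Mplkip (0.234) were not called, and Brk1 was. Scaled to the negative probe Nppa and Brk1 were -0.67 and -0.73 on the log2 scale (adjusted p = 0.324 for both).

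**Figure D4:**
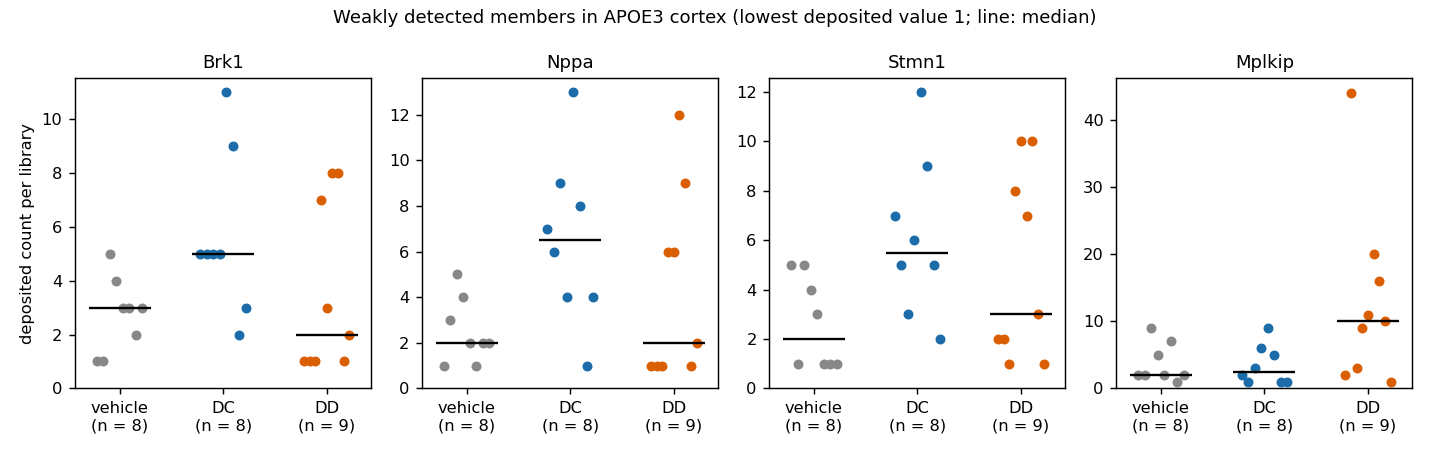
Deposited counts of Brk1, Nppa, Stmn1 and Mplkip in each APOE3 cortex library (point) of the vehicle, DC and DD groups, with group medians as lines; 1 is the lowest value in the files. For Brk1 and Nppa 4 of 9 DD libraries lie at 1, and 1 DD library holds 44 Mplkip counts.

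The direction of the members went with their level in the fit of all members. In the fit of all members, 19 of the 23 with a ratio over 10 were higher in DD (median log2 0.25), 7 of the 15 with a ratio of 5 to 10 (median -0.03), and 16 of the 72 with a ratio of 2 to 5 (median -0.32). Without the members over 2 in 1 regimen only, the last was 9 of 49. With 1 subtracted from every count the numbers were 19, 8 and 21. Among members tested in the main fit, 17 of 23, 4 of 15 and 4 of 17 were higher in DD. Their median log2 fold changes were 0.07, -0.18 and -0.20, so the pattern depends on which genes enter the fit. The ratio to the negative probe, which involves no scaling across genes, was higher in DD for 23 of 23, 13 of 15 and 43 of 72 members. Whether the level of a member, the floor of 1 or the depth sets its direction was not tested. Fewer cells of a type and less RNA per cell cannot be told apart in such regions.

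Microtubule genes, the target of docetaxel, were scarcely measured. Of 34 fixed genes in the table, among them tubulins, microtubule-associated proteins and motors, 2 were members. Tubg1, the gamma-tubulin that nucleates microtubules, ran from 1.77 over 4.52 to 7.53 per 1000 in DD and from 4.13 over 5.23 to 9.17 in DC (log2 -0.28, SE 0.23, edgeR adjusted p = 0.496; 0.31 when scaled to the negative probe). Stmn1, stathmin, which sequesters tubulin dimers, ran from 0.567 over 1.19 to 1.88 in DD and from 1.72 over 2.52 to 6.21 in DC, ranges that overlap by a small margin. From a median of 3 counts in DD and 5.5 in DC, its log2 fold change in the fit of all members was -0.85 (SE 0.32, adjusted p = 0.149). The median ratio of these genes to the negative probe was 0.945.

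Of 36 genes on the fixed list for crosslink, excision and strand break repair, 3 were members, Elof1, Lig1 and Mplkip, and 0 passed. Mplkip is counted here because the list holds it, and no role of it in repair was tested. Lig1, the replicative DNA ligase, ran from 0.826 over 3.43 to 4.53 in DD and from 0.686 over 2.77 to 6.21 in DC (log2 0.19, SE 0.25, edgeR adjusted p = 0.736). The 3 members thus comprised a higher and a lower value, each resting on 1 region, and 1 gene near 0. No gene stood above the limit among 18 of cyclophosphamide activation and detoxification, 11 of taxane and anthracycline transport and oxidation, 10 anthracycline targets, 20 p53 targets or 24 inflammatory and interferon genes; their highest ratios were 1.01, 1.04, 1.35, 0.994 and 1.38. Single genes of these lists thus lay at or near background. Summed medians in DD and DC were 1.32 and 1.08 times the negative probe for inflammatory and interferon genes, and 1.11 and 0.933 for p53 targets. They were 1.10 and 1.14 for cyclophosphamide activation and detoxification, 1.14 and 1.11 for transport and oxidation, and 1.07 and 1.06 for anthracycline targets. The ranges of DD and DC overlapped in each list, and these sums were not tested.

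Of 25 neurotrophic and synaptic genes, 7 were members, of which 6 were tested and 0 passed. This list, like the repair and mitochondrial lists, includes genes already known to be bright in these data. Its number of members is therefore no result. Ctxn1, a membrane protein of cortical neurons, ran from 11.5 to 19.3 per 1000 in DD and from 5.50 to 23.3 in DC. Marcks, a substrate of protein kinase C at the membrane, had medians of 7.13 in DD and 6.03 in DC, Sprn, the prion-like protein shadoo, 7.93 and 7.82, and Pcsk1, a prohormone convertase, 1.74 and 1.67. Calm2 and Inhbb, given above, were the members of this list with an unadjusted p under 0.05. Spinophilin (Ppp1r9b), a postsynaptic scaffold outside the list, had 2 counts in the median DD library and 5 in the median DC library (log2 -1.05, SE 0.36, edgeR adjusted p = 0.132 in the fit of all members). It was called in the fit of APOE3 cortex alone (adjusted p = 0.0442).

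Of 17 mitochondrial genes 4 were members, Mtch2, Coa5, Fdx2 and Tmem65, and 0 passed. Coa5, needed to assemble cytochrome c oxidase, had medians of 14.2 in DD and 14.3 in DC, and Fdx2, a ferredoxin of iron-sulfur cluster assembly, 9.39 and 8.71. Of 15 glycolytic genes, Aldoa and Pkm were members and neither passed the count filter. Pkm, pyruvate kinase, had 5 counts in the median DD and 6 in the median DC library (log2 -0.46, SE 0.31 in the fit of all members, adjusted p = 0.430). Aldoa, aldolase A, had 6 and 6.5 (log2 -0.28, SE 0.27, adjusted p = 0.581; 0.13 when scaled to the negative probe).

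Smaller lists, built around genes already known to be bright in these data, held 19 member entries and 0 calls. Ubb, a polyubiquitin gene, had a log2 fold change of -0.47 (SE 0.25, edgeR adjusted p = 0.246; 0.11 when scaled to the negative probe). Pcbd2, a pterin dehydratase, had one of -0.34 (SE 0.18, adjusted p = 0.254; 0.23 when so scaled). Trir, an exonuclease that binds telomerase RNA, had medians of 21.2 in DD and 18.7 in DC, and Xrn1, the cytoplasmic exoribonuclease, 8.48 and 8.20. Erlin2, which helps to degrade receptors of the endoplasmic reticulum, had 10.2 and 7.66, and Tmed2, a cargo receptor of early secretory vesicles, 3.61 and 3.22. Gimap4, a GTPase of lymphocytes, had 9.31 and 9.17, Ccl27a, a chemokine, 2.48 and 2.87, and Actb 2.96 and 3.81.

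Cell type markers gave little check of the tissue. Slc17a7, the vesicular glutamate transporter of cortical excitatory neurons, was a member at 2.46 times the negative probe, with 4 counts in the median DD and 4.5 in the median DC library (log2 -0.65, SE 0.33, edgeR adjusted p = 0.249 in the fit of all members). Olig2, of the oligodendrocyte lineage, was a member at 5.97 times and ran from 3.40 over 5.52 to 8.66 per 1000 in DD and from 2.62 over 4.95 to 8.25 in DC (log2 0.34, SE 0.22, adjusted p = 0.377). Of the marker lists for inhibitory neurons, astrocytes, mature oligodendrocytes, microglia, endothelial cells, mural cells, fibroblasts, choroid plexus and blood, 0 genes were members. The 5 excitatory markers, summed, ran from 0.892 over a median of 1.46 to 2.42 times the negative probe in DD and from 1.61 over 1.94 to 2.46 in DC. Other lists went either way. Summed medians in DD and DC were 1.32 and 1.01 for inhibitory neurons, 1.18 and 1.05 for astrocytes, and 1.26 and 0.952 for oligodendrocytes. They were 3.20 and 2.05 for precursors of oligodendrocytes, 1.19 and 0.992 for microglia, 0.942 and 1.21 for fibroblasts, and 1.23 and 1.43 for choroid plexus. For endothelial cells they were 1.24 and 1.13, for mural cells 0.987 and 0.832, and for blood 1.22 and 0.942. For cortex layers they were 1.03 and 1.09, and for hippocampus 0.957 and 1.10. In the precursor list 4 of 5 genes lay under 1 times the negative probe, and Olig2 had median ratios of 11.8 in DD and 5.57 in DC. The part of any cell type in the differences was not tested.

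The same partners were compared in APOE4 cortex, with 8 DD and 8 DC regions. There 0 of 57 genes were called (0%), 0 had an unadjusted p under 0.05, all 57 intervals lay within a 2-fold change, and the largest log2 fold change was 0.40 in size. The median SE was 0.19 there and 0.25 in APOE3. Median counts of Mplkip were 24 in DD and 21 in DC of APOE4, against 10 and 2.5 in APOE3. Those of Inhbb were 16.5 and 13, against 5 and 4.5. The part of depth in the narrower APOE4 values was not tested. The test of the difference between genotypes called 0 of 57 (0%), with 3 at an unadjusted p under 0.05. Eri3 was -0.88 in APOE3 and 0.27 in APOE4 (difference -1.15, SE 0.36, edgeR adjusted p = 0.124). In APOE4 it ran from 1.68 over 2.91 to 4.44 per 1000 in DD and from 0.861 over 2.38 to 3.63 in DC. Inhbb was -0.75 and 0.29 (difference -1.03, SE 0.35, adjusted p = 0.125), and 1110065P20Rik 0.34 and -0.15 (difference 0.50, SE 0.23, adjusted p = 0.579). Genotypes lay on different collection plates, so genotype and plate cannot be told apart, and these p-values too are taken over regions.

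**Figure D5:**
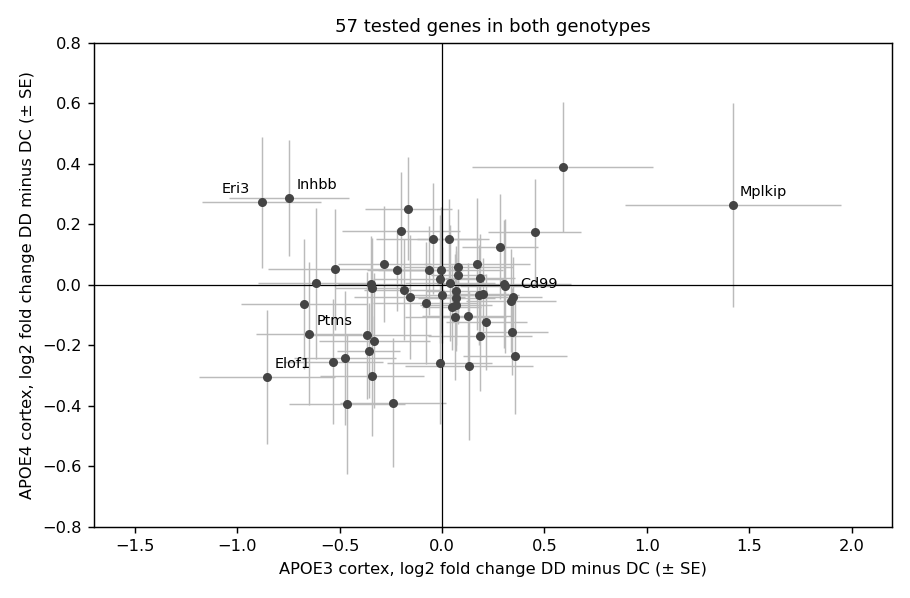
Log2 fold change (DD minus DC) of the 57 tested genes in APOE3 cortex (horizontal axis) and APOE4 cortex (vertical axis, on a narrower scale), each point with its SE in both directions. The APOE4 values stay within 0.40 of 0, while the APOE3 values reach 1.42 for Mplkip, mostly from a single region, and -0.88 for Eri3. Mplkip and Inhbb had lower median counts in APOE3 than in APOE4.

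In APOE3 hippocampus, the other region of the same genotype, 0 of 38 tested genes were called (0%) and 2 had an unadjusted p under 0.05 by edgeR. Of the 10 genes with the smallest p in cortex, all but Ptms were tested there. Log2 fold changes (DD minus DC) in hippocampus were -0.08 for Mplkip, 0.06 for Cd99, 0.24 for Gm34733, 0.25 for 1110065P20Rik and 0.07 for Tysnd1 on the DD side of cortex. On its DC side they were -0.22 for Eri3, 0.07 for Elof1, 0.09 for Inhbb and -0.22 for Lrr1. Mplkip, Elof1 and Inhbb thus had the other sign. Mtch2 was 0.37 and Chic2 -0.10. The difference between regions was not tested.

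Each regimen against the same 8 vehicle regions gave 2 calls for DD (3.51%) and 7 for DC (12.3%) by edgeR, and both counts share those vehicle regions. None of the genes in either count passed in DD against DC. Mtch2 was lower than vehicle after both (log2 -0.87 after DD and -1.18 after DC), and so was Ripply2, a corepressor of somite formation (-0.91 and -0.97); DD and DC differed by 0.31 and 0.06. The other five passed for DC and not for DD. Cd99 was -0.56 after DC and -0.22 after DD, Gm34733 -0.94 and -0.49, Gm33888 -0.62 and -0.34, Ptms 1.02 and 0.37, and Elof1 1.33 and 0.48. For each of them the DD value lay on the same side of vehicle and nearer to it. They were picked for passing after DC only, which by itself favours a DD value nearer to vehicle. Direct differences between the regimens were 0.34, 0.45, 0.28, -0.65 and -0.85, with adjusted p from 0.167 to 0.377, so a call for DC and none for DD was not a called difference between them.

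Regions from neighbouring wells were alike to a limited degree. The consensus correlation of regions in the same run of wells was 0.247 over the tested genes. With runs as a random effect, 0 genes were called and 7 had an unadjusted p under 0.05, and with counts summed over runs 0 and 8.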

How the data were processed

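The deposited values are expected counts per gene, not scaled by the authors as far as the values show. Per the submitters' processing notes the build is mm10; the counting software is not given in the sources used here. Values were rounded to whole numbers, and 1 was the lowest value in nearly all libraries. The ratio to the negative probe was taken per library and its median over the 17 libraries.

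All 49 cortex libraries of 6 groups were fitted with edgeR 4.0.16 in R 4.3.3 (TMM, filterByExpr with minimum count 10, quasi-likelihood F test, Benjamini-Hochberg adjustment over the genes tested, threshold 0.05). SE come from the F statistic and intervals are 95%. A second fit took the 110 members without the count filter. Library measures were compared by two-sided exact permutation tests. The region is the replicate and its p-values are too small for regions that share an animal. A run is a series of neighbouring wells of one group; DD had 5 (1 with a single library, left out of tests over runs), DC 4. No 2 of the 17 libraries were identical. Numbers of regions follow accession order and pair nothing.

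Named genes are those that passed or, as here with none, the 5 smallest p in each direction, the 10 members with the highest ratio and members of the role lists; genes with an unadjusted p under 0.05 and weakly counted members were added after values were seen. Members and lists were chosen with earlier results of these data known. Of 320 fixed genes, 311 were in the table and 35 were members. Coordinates come from the RefSeq annotation of GRCm38, the assembly of mm10, where 109 of 110 members were found. Alternatives included DESeq2 1.42.0, other scalings and filters, 1 or the negative probe subtracted, runs summed or as a random effect (limma 3.58.1), and each region left out. The edgeR fit was tested on simulated counts.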

Additional observations from a re-analysis of the deposited data

Results flagged for a closer look

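Among 42 sets of values looked at for a region far from the rest of its group, 3 were found. For normally distributed values chance gives about 1 in 20 sets, so some of the 3 can be chance. The values were not on a log scale, so that rate is approximate, above all for weakly counted genes. Mplkip stood at 41.4 per 1000 tested counts in the DD region numbered 2, against a group median of 1.91. It stood at 4.11 in the DC region numbered 4, against 1.31. Gm52523 was lowest in the DC region numbered 8, at 55.0 against 74.6. No explanation of these values was tested.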

How the results depend on the processing

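No paired analysis was possible because the labels give no replicate numbers and do not tie regions to animals. Of 1014 log2 fold changes of single genes under alternatives (33 results), 947 kept their direction and side of the threshold, 38 reversed, 24 lost and 5 gained a call. The 0 calls of 57 became 6 with no low-count filter, 3 over the members, and 1 under DESeq2 and when scaled to the negative probe, and stayed at 0 without each region in turn. The 3 calls among members became 1 under DESeq2, with the run as a random effect, with 1 subtracted and when scaled to the negative probe, and 0 to 6 without each region. The log2 ratio of the member share was 0.53 over runs. With no low-count filter and when scaled to the negative probe, log2 fold changes reversed to 0.32 and 0.33 for Lrr1, 0.25 and 0.27 for Chic2, 0.049 and 0.080 for Calm2, 0.29 and 0.31 for Tubg1, 0.20 and 0.23 for Pcbd2, 0.12 and 0.11 for Ubb, 0.59 and 0.61 for Gm46840, and to 0.13 for Aldoa when so scaled. With no scaling beyond the summed counts they were -0.020 for Gm10265, -0.033 for Gm52523 and -0.013 for Hmga2, which ran from -0.058 to 0.28 without each region. Elof1 was 0.083 in libraries with a negative probe under 2. Gm46840, near 0, was 0.21 over the members, 0.022 under DESeq2, 0.097 with runs summed, 0.0090 with the run as a random effect, 0.0061 with the negative probe as a covariate, 0.11 in libraries with a negative probe under 2, 0.024 without the single-well run, and -0.075 to 0.13 without each region. The causes were not tested. Members numbered 311 at a ratio over 1.5 and 60 over 3. Over all cortex libraries 97 genes qualified, 89 of them among the 110. Intervals of 95% reach beyond a 2-fold change for 11 tested genes, and 77 members had median counts under 10.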

Other observations

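Ribosomal protein genes were the largest family of housekeeping genes among the members, a grouping made after the values were seen. Of the 78 measured, 7 were members, Rps29, Rps4x, Rps26, Rps24, Rpl23a, Rpl41 and Rpl3, at 2.03 to 3.35 times the negative probe, and 0 passed the count filter. In the fit of all members 6 were lower and 1 higher in DD, with a median log2 fold change of -0.39 and 0 calls by edgeR adjusted p, against a median of -0.32 over the 72 members with a ratio of 2 to 5. Another 10 members were predicted genes with Gm names, of 521 measured, at ratios from 2.03 to 230. Of 1110 olfactory and vomeronasal receptor genes, Olfr655 and Vmn1r189 were members, at 3.19 and 8.78 times the negative probe, and neither was called.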
